A study of Mus musculus with 4 samples.

Results

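The plasminogen activation system was followed through 6 genes in the mesenchymal and blood cells of mouse bone: the activators Plau and Plat, the activator receptor Plaur, and the inhibitors Serpine2, Serpinb2 and Serpinf2. They were chosen by name, are 6 of 32285 genes in the deposited matrices, and are not the whole family. Plau, Plat, Plaur, Serpine2, Serpinb2 and Serpinf2 were found in both libraries, and their unique molecular identifiers (UMIs, 1 per captured RNA molecule) were counted in 10063 of 11371 barcodes of a young mouse and 5607 of 6729 barcodes of an old mouse.

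Plasminogen is a circulating zymogen that a plasminogen activator cuts to give plasmin, a protease that dissolves fibrin and also acts on matrix proteins, latent growth factors and other proenzymes. Urokinase (Plau) works mostly at the cell surface, where its receptor uPAR (Plaur) holds it, and tissue-type activator (Plat) works best when bound to fibrin. Serpins, which trap their target protease in a covalent complex, hold both activators and plasmin in check, and in bone the system takes part in matrix turnover, fracture repair and the marrow niche of blood stem cells.

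The study used CITE-seq, which reads RNA and an oligonucleotide-tagged antibody against the surface protein CD24 in the same cell. The young mouse was 6 months old and the old mouse 24 months old, with 1 mouse per age. Both carried the INK-ATTAC transgene, in which a fragment of the p16 promoter drives an inducible caspase 8 and neither was treated. Cells were released from femur and tibia by Liberase and collagenase digestion, passed over beads that hold blood lineage cells, and sorted as CD45- cells that excluded SYTOX, so the numbers of blood cells describe the sort and not the tissue.

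Barcodes were placed in cell groups by 6 marker genes each, a barcode needing a UMI of at least 3 of the markers and a lead of at least 1 over the next group. None of the 6 plasminogen genes is a marker. In all, 84.5% of young and 86.1% of old kept barcodes were placed. Mesenchymal groups with enough cells were marrow stromal (3142 young and 1972 old cells), osteoblast (851 and 490), chondrocyte (178 and 61), tendon (348 and 140), fibroblast (2709 and 1226), joint lining (132 and 72) and pericyte or smooth muscle (66 and 65), and blood groups were erythroid (322 and 328), mature neutrophil (171 and 297) and megakaryocyte (70 and 50). In each of these 10 groups at least 5 of the 6 own markers were raised over the mean of the other groups in each library. The same markers had placed the barcodes, so this is no independent check of the labels. The joint lining group also had F13a1, fixed as a macrophage marker, among its top 10 genes. The median kept barcode of the young library held 6385 UMIs and that of the old library 9711, and 19 barcode sequences occurred in both. Levels are CPM, UMIs of the gene per 1e+06 UMIs summed over the group, with exact Poisson 95% intervals that cover counting error only.

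The members divided by cell group in a similar way in both mice. The highest group was fibroblast for Plau, mature neutrophil for Plaur, marrow stromal for Serpine2 and megakaryocyte for Serpinb2 in each mouse, while Plat was highest in osteoblasts of the young and chondrocytes of the old mouse. Serpinf2 was close to undetected. The highest groups of Plau, Plaur, Serpine2 and Serpinb2 were the same when Scrublet doublet calls were removed, when the mitochondrial limit was lowered, when more markers or more UMIs per marker were needed, and after thinning.

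**Figure D1:**
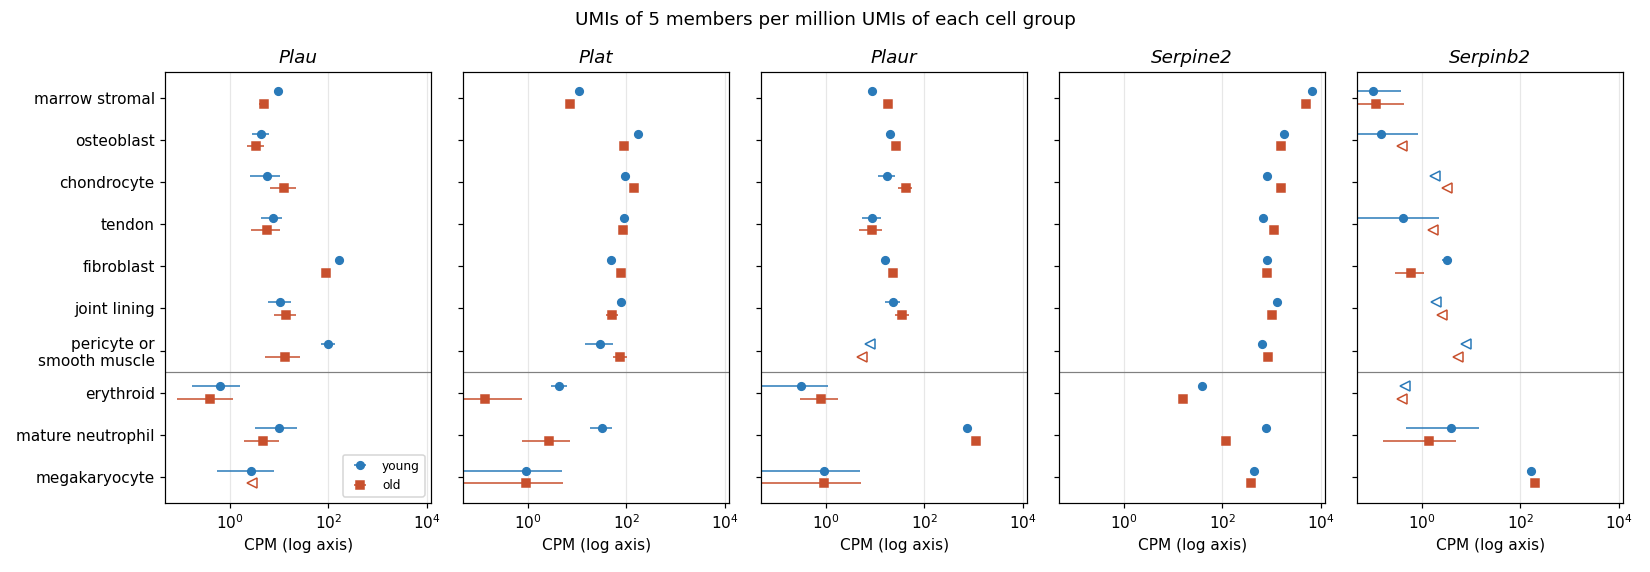
Levels of the 5 detected members (CPM, log axis) in 10 cell groups of the young and the old library, with 95% Poisson bars, and open triangles at the 3-count floor where no UMI was found. The grey line separates mesenchymal from blood groups. Serpine2 in marrow stroma (6526 and 5012 CPM) and Plaur in mature neutrophils (738 and 1111 CPM) stand above every other group of their panels.

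Plau (ENSMUSG00000021822), which encodes urokinase, lies at chr14:20836662-20843388 of GRCm38.p6. Its level in fibroblasts was 167 CPM (95% interval 161.8 to 172.3) in the young and 89.7 CPM (85.2 to 94.4) in the old mouse. Fibroblasts were 26.9% and 21.9% of all kept cells and held 85.8% and 81.7% of all Plau UMIs of the young and the old library, which is 3906 of 4552 and 1478 of 1809. A Plau UMI was found in 32.0% of young and 33.2% of old fibroblasts, and after thinning each cell to 2000 UMIs in 14.1% and 12.7%.

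Marrow stromal cells had 9.67 CPM of Plau in the young and 4.93 CPM in the old mouse. Osteoblasts had 4.31 and 3.41 CPM, chondrocytes 5.65 and 12.8, tendon cells 7.44 and 5.71, and joint lining cells 10.7 and 13.9. The old values of chondrocytes and joint lining cells rest on 12 and 16 UMIs. Without the top barcode of each library chondrocytes read 3.19 CPM young and 7.68 CPM old, and joint lining cells 6.75 and 3.50 CPM. In the erythroid group, the background for free RNA in droplets, the level was 0.628 and 0.409 CPM. The pericyte or smooth muscle group read 100.2 CPM in young and 13.03 CPM in old cells, but 86.5% of its 37 young UMIs came from 1 barcode, and without the top barcode of each library it read 14.5 and 7.53 CPM.

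The edgeR quasi-likelihood test over UMIs summed per mouse and group, with mouse as a block, asked which genes differed among the 7 mesenchymal groups. It called 67.6% of all 12230 genes tested, and 4 of the 4 members that passed the filter on low counts (Plau, Plat, Plaur and Serpine2). Serpinb2 and Serpinf2 did not pass that filter. For Plau the adjusted p was 1.07e-06 (F = 56.4). Between pairs of groups, 42 of 84 member comparisons were called, where 26.9% of all gene and pair comparisons were called (13.5% to 45.7% per pair). That count holds the calls of Plaur against the pericyte group, where no Plaur UMI was found. Fibroblasts were above marrow stromal cells by 4.25 on the log2 scale (adjusted p = 1.24e-06), above osteoblasts by 4.89, above tendon cells by 4.28, above chondrocytes by 3.79 and above joint lining cells by 3.37. Over the pericyte group the difference was 1.32 (SE 0.442, adjusted p = 0.0423), and it was 3.57 (adjusted p = 0.000102) with that top barcode left out. The 5 calls that placed the pericyte group above the remaining mesenchymal groups were all lost without that barcode (adjusted p from 0.217 to 0.907). With it left out, 40 of the 84 member comparisons were called.

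Within fibroblasts Plau was uneven. Fibroblasts were gated by 4 sets of 3 genes, a cell needing a UMI of at least 2, and the gates overlap. Cells in the gate of Il6, Tnfaip6 and Cxcl1, genes of an inflammatory response, had 399 CPM (385.5 to 413.3, 768 cells) in the young and 177 CPM (166.9 to 187.5, 458 cells) in the old mouse. The gate of Col6a5, Ccl11 and C7 had 193 and 128 CPM, that of Pi16, Dpp4 and Efhd1 had 162 and 116, and that of Scg3, Sema3e and Islr2 had 110 and 93.2. Fibroblasts in no gate had 30.9 CPM (1007 cells) and 27.3 CPM (350 cells). After thinning, 28.6% and 21.6% of cells in the Il6 gate had a Plau UMI against 5.77% and 6.20% of cells in no gate. Cells within 1 mouse are not replicates, so these differences carry no test.

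**Figure D2:**
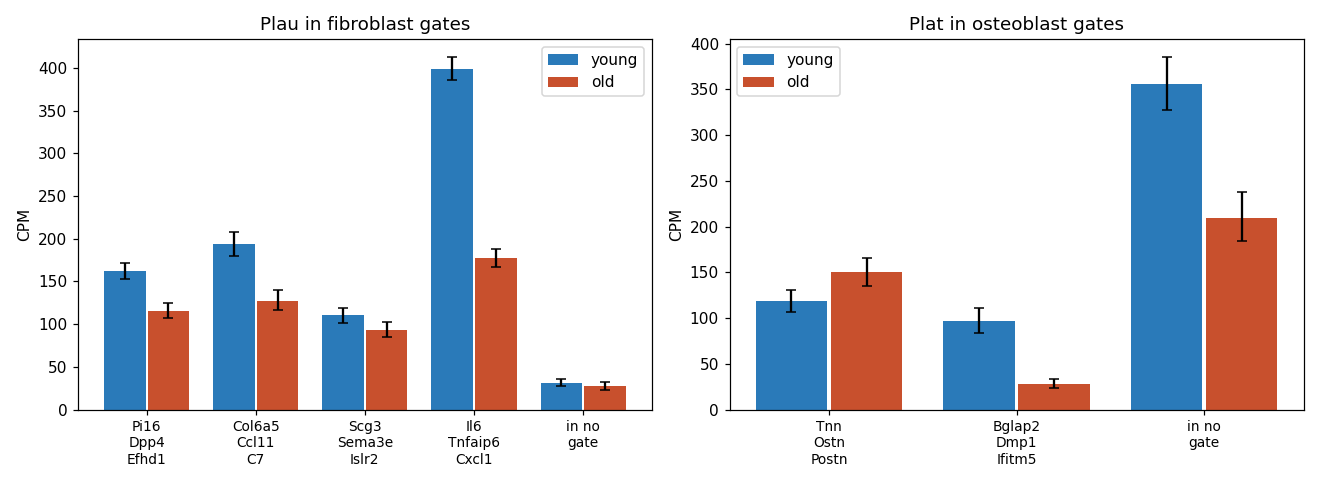
Plau in fibroblast gates and Plat in osteoblast gates (CPM, bars from 0, 95% Poisson bars), young and old library side by side, each gate named by its 3 genes. Plau is highest in the Il6, Tnfaip6 and Cxcl1 gate in both mice, and Plat is highest in osteoblasts in no gate (356 CPM young, 210 CPM old).

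Plat (ENSMUSG00000031538), which encodes tissue-type plasminogen activator, lies at chr8:22757722-22782848. Osteoblasts had 169 CPM (159.7 to 179.5) in the young and 91.2 CPM (84.5 to 98.2) in the old mouse, with a UMI in 42.8% and 40.2% of cells. Chondrocytes had 95.4 and 143 CPM, tendon cells 89.3 and 86.8, joint lining cells 79.5 and 52.0, and fibroblasts 49.0 and 78.7. When each marker needed at least 2 UMIs, old chondrocytes (83.7 CPM) and old osteoblasts (83.4 CPM) were level, so the order of these groups in the old mouse rests on the marker rule. Marrow stromal cells had 11.0 and 7.22 CPM, the lowest of the mesenchymal groups in each mouse. Osteoblasts, 8.46% and 8.74% of kept cells, held 27.7% and 22.5% of all Plat UMIs. Fibroblasts, 26.9% and 21.9% of kept cells, held 27.9% and 42.0%. Barcodes without a group, 15.5% and 13.9% of kept cells, held 25.9% and 18.9%.

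Plat also differed among mesenchymal groups (F = 22.0, adjusted p = 5.62e-05). Marrow stromal cells were below all 6 other mesenchymal groups, by 4.06 on the log2 scale against osteoblasts (adjusted p = 4.93e-06) and by 2.75 against the pericyte group (adjusted p = 0.00256). Osteoblasts were above fibroblasts by 1.13 (adjusted p = 0.0188) and chondrocytes above fibroblasts by 1.07 (adjusted p = 0.0449). Osteoblasts did not differ beyond the spread from chondrocytes (0.06, adjusted p = 0.944), tendon cells (0.65, adjusted p = 0.251), joint lining cells (1.04, adjusted p = 0.0650) or the pericyte group (1.31, adjusted p = 0.0538). The order of these groups above marrow stroma was therefore not settled by the test.

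Osteoblasts were gated in the same way by 2 sets of genes. Those with UMIs of Tnn, Ostn and Postn, matrix and secreted genes of the periosteum and of early osteoblasts, had 118 CPM of Plat in the young and 150 CPM in the old mouse. Those with UMIs of Bglap2, Dmp1 and Ifitm5, genes of mineralising cells, had 96.7 and 28.2 CPM. Plat was higher in osteoblasts outside both gates (356 CPM in 284 young cells and 210 CPM in 142 old cells).

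Plaur (ENSMUSG00000046223) encodes the urokinase receptor, a protein tethered to the membrane by a lipid anchor, and lies at chr7:24460937-24475970. Mature neutrophils had 738 CPM (664 to 818) in the young and 1111 CPM (1057 to 1167) in the old mouse, with a UMI in 64.3% and 75.4% of cells. They were 1.70% and 5.30% of the kept cells and held 25.4% and 49.5% of the Plaur UMIs. The 100 bases before the RefSeq start in the promoter table used here are printed to show the region. That start lies inside the gene span given above, which takes in a start further upstream. They were read on GRCm38.p6, plus strand, chr7:24462383-24462482, with matches to GGGCGG or its reverse complement CCGCCC (the GC box) in capitals.
Plaur: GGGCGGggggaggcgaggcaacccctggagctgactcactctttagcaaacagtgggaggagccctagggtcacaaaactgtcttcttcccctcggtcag
It has 61% G or C and 1 GC box, a word found in 24.7% of all 32851 RefSeq windows of 100 bases.

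Among mesenchymal groups the Plaur level was far lower. It was 20.4 CPM in young and 26.5 CPM in old osteoblasts, 15.8 and 22.9 in fibroblasts, 23.4 and 35.5 in joint lining cells, 17.6 and 41.7 in chondrocytes, 8.93 and 18.2 in marrow stromal cells and 8.68 and 8.57 in tendon cells. The old chondrocyte value rests on few cells, 30.8% of its UMIs coming from 1. No Plaur UMI was found in 66 young and 65 old pericyte or smooth muscle cells, which allows a share of cells with a UMI of up to 4.55% and 4.62% by counting error, and the erythroid level was 0.314 and 0.818 CPM.

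The groups differed (F = 19.2, adjusted p = 0.000169). Each of the other groups was called above the pericyte group (log2 difference 9.12 to 10.9, SE 1.57 to 2.29). The sizes of those differences rest on the empty Plaur sums of the pericyte group. Tendon cells were below osteoblasts by 1.51 on the log2 scale (adjusted p = 0.00366), and marrow stromal cells were below osteoblasts by 1.10 (adjusted p = 0.000753) and below fibroblasts by 0.69 (adjusted p = 0.00837). Osteoblasts, chondrocytes and joint lining cells did not differ from each other beyond the spread (adjusted p of at least 0.436).

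In marrow stromal barcodes Plaur moved with a neutrophil gene. S100a8, an abundant neutrophil mRNA, averaged 254 UMIs in the 61 young and 351 UMIs in the 43 old stromal barcodes with a Plaur UMI, against 0.234 and 0.569 UMIs in the rest. Barcodes with at least 5 S100a8 UMIs held 130 of 171 young and 244 of 302 old stromal Plaur UMIs, and 23.0% and 6.98% of Plaur-positive stromal barcodes were called doublets by Scrublet against 4.02% and 1.19% of the others. Without the S100a8-rich barcodes (42 young and 75 old) stromal Plaur was 2.19 and 3.56 CPM. The differences then were 3.30 below osteoblasts and 2.90 below fibroblasts on the log2 scale, and a difference of 1.79 below tendon cells was called (adjusted p = 0.00105) where none had been with all barcodes (0.42 above tendon cells, adjusted p = 0.278). In osteoblasts and fibroblasts the mean S100a8 count of Plaur-positive cells was at most 0.31 UMIs.

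Receptor and ligand were also read in the same fibroblasts. After thinning, Plaur had a UMI in 4.81% of 374 young and 9.15% of 153 old fibroblasts with a Plau UMI, against 2.32% and 3.69% of those without. These rest on 18 and 14 cells with both, and the intervals were 2.88 to 7.50 against 1.74 to 3.02 (young) and 5.09 to 14.9 against 2.64 to 5.01 (old). The direction was the same in both mice. Plat in fibroblasts with and without Plau changed direction (7.49% against 8.76% young, 16.3% against 11.9% old), as did Plaur with Plat in osteoblasts. Serpine2 with Plau in fibroblasts and with Plat in osteoblasts did not. No test across cells was made.

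Serpine2 (ENSMUSG00000026249) encodes protease nexin 1, an inhibitor of thrombin, urokinase, tissue-type activator and plasmin that is held on heparan sulfates, and lies at chr1:79794317-79858665. Its upstream sequence is shown beside that of Serpinb2 because these inhibitors had the widest and among the narrowest spread over groups. Both come from RefSeq on GRCm38.p6, with GC boxes and TATAAA (or its reverse complement TTTATA) in capitals, and overlapping GC boxes share bases. Serpine2 is read on the minus strand at chr1:79858666-79858765 and Serpinb2 on the plus strand at chr1:107511323-107511422, before the first of 2 listed starts, which lie inside the gene span given below.
Serpine2: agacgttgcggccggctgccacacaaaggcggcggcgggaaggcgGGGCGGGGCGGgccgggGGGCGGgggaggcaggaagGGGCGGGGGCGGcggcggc
Serpinb2: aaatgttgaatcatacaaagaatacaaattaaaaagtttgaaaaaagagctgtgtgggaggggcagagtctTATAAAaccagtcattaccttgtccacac
The Serpine2 window has 84% G or C and 5 GC boxes, and the printed Serpinb2 window has 35% G or C and 1 TATAAA, a word found in 5.56% of all windows of this length. The window before the second Serpinb2 start (chr1:107511410-107511509) has 50% G or C and holds neither word. These matches are descriptions of letters.

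Marrow stromal cells, the Cxcl12-rich and Lepr-positive stroma of the marrow, had 6526 CPM of Serpine2 in the young and 5012 CPM in the old mouse, with a UMI in 99.1% and 97.2% of cells. They were 31.2% and 35.2% of the kept cells and held 69.0% and 66.6% of the 181071 young and 125120 old Serpine2 UMIs. Osteoblasts had 1786 and 1540 CPM, joint lining cells 1261 and 1035, chondrocytes 821 and 1551, fibroblasts 806 and 798, tendon cells 677 and 1140, and the pericyte group 647 and 860. Every mesenchymal group thus had Serpine2, with marrow stroma above the other 6 in each mouse.

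The test among mesenchymal groups gave F = 29.3 and an adjusted p of 1.66e-05. Marrow stromal cells were above each of the other 6, by 1.56 on the log2 scale against osteoblasts (SE 0.290, adjusted p = 0.00102), by 2.73 against fibroblasts (adjusted p = 1.69e-05) and by 2.83 against the pericyte group. Osteoblasts were above tendon cells by 1.00 (adjusted p = 0.0362), fibroblasts by 1.17 (adjusted p = 0.00751) and the pericyte group by 1.27 (adjusted p = 0.00653). They were not distinct from chondrocytes (0.45, adjusted p = 0.327) or joint lining cells (0.62, adjusted p = 0.152). Within osteoblasts, the gate of Tnn, Ostn and Postn had 1086 and 1537 CPM, that of Bglap2, Dmp1 and Ifitm5 had 2271 and 1398, and cells in no gate had 2374 and 2421.

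Blood groups read Serpine2 as well. Megakaryocytes had 434.5 and 388.5 CPM, with a UMI in 87.1% and 92.0% of cells and, after thinning, in 54.5% and 65.2%. Erythroid cells had 38.6 and 16.0 CPM, and after thinning 7.6% and 4.1% had a UMI. Mature neutrophils had 762 CPM in the young and 119 CPM in the old mouse, yet only 25.7% and 20.9% of cells had a UMI. For each UMI of Cxcl12, a stromal mRNA, there were 0.260 and 0.228 Serpine2 UMIs in marrow stroma, 0.524 and 0.278 in neutrophils, 0.757 and 0.283 in erythroid cells, and 10.1 and 2.62 in megakaryocytes. The part of free or attached stromal RNA in the blood values was not tested.

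Serpinb2 (ENSMUSG00000062345), at chr1:107500892-107525600, encodes plasminogen activator inhibitor 2, a largely intracellular serpin. Megakaryocytes had 162.8 CPM (139.8 to 188.6) in the young and 195.2 CPM (169.5 to 223.7) in the old mouse. This group, 0.696% and 0.892% of kept cells, held 178 of 268 and 207 of 230 Serpinb2 UMIs, and 78.6% and 76.0% of its cells had a UMI. No UMI was found in erythroid, joint lining or pericyte cells of either mouse. Against the floor of 3 counts per library, megakaryocytes were at least 346-fold higher than erythroid cells in the young and 477-fold in the old mouse. Fibroblasts had 77 young and 10 old UMIs in 15 and 6 cells, with 39% and 50% of them in 1 cell.

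Serpinf2 (ENSMUSG00000038224), at chr11:75431736-75439501, encodes alpha 2-antiplasmin, the plasma inhibitor of plasmin that the liver makes. It had 11 UMIs in 11 young cells and 9 UMIs in 9 old cells over all kept barcodes. The young UMIs lay in 6 fibroblasts, 3 erythroid cells, 1 marrow stromal cell and 1 barcode without a group. No comparison was possible at this depth.

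The mean of the 7 mesenchymal groups was next set against the mean of the 3 blood groups, each group weighted equally. Of 12835 genes tested, 63% were called, 33.7% higher and 29.2% lower in mesenchymal groups. Plau exceeded its blood mean by 2.40 log2 units (SE 0.456, adjusted p = 0.000231), Plat by 3.78 (SE 0.491, adjusted p = 4.42e-06) and Serpine2 by 2.45 (SE 0.286, adjusted p = 1.29e-06), where the median of all genes was 0.12. These differences were larger in the old than in the young mouse, with no test of that gap: 1.93 young and 2.91 old for Plau, 2.78 and 5.09 for Plat, and 1.83 and 3.27 for Serpine2. Plaur, high in neutrophils and near the floor in erythroid cells, gave -0.77 (SE 0.748, adjusted p = 0.446). For Serpinb2 the edgeR fit gave no usable test, as for 1053 genes that had no UMI in at least 1 of the sums, and DESeq2 gave -3.97 (SE 0.801, adjusted p = 1.91e-06). The blood side of that value is the megakaryocyte group, with 178 young and 207 old UMIs. Neutrophils had 2 and 2 UMIs and erythroid cells none.

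CD24 is a small lipid-anchored surface glycoprotein that the study tagged by antibody. The antibody count split mesenchymal cells into 581 CD24+ and 6845 CD24- cells in the young and 210 and 3816 in the old mouse. In CD24- cells Plau was 79.3 CPM young and 37.2 CPM old, against 52.7 and 23.4 CPM in CD24+ cells. Serpine2 was 3034 and 2036 CPM in the young and 2568 and 1802 CPM in the old mouse. Plat ran the other way, with 49.5 CPM young and 54.1 CPM old in CD24- cells against 90.3 and 72.3 CPM in CD24+ cells, and Plaur was 13.1 against 19.4 and 21.4 against 24.9 CPM.

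Over the 4 sums with mouse as a block, edgeR called 15.4% of 15244 genes (8.4% higher and 7.03% lower in CD24+ cells). The log2 difference of CD24+ from CD24- cells was -0.57 for Plau (SE 0.0931, adjusted p = 0.00862), -0.49 for Serpine2 (SE 0.0678, adjusted p = 0.00470) and 0.71 for Plat (SE 0.118, adjusted p = 0.00894). Plaur (0.46, SE 0.135, adjusted p = 0.0656) missed the threshold. It passed without doublet calls (adjusted p = 0.0141), S100a8-rich barcodes (adjusted p = 0.00441) or the low-count filter (adjusted p = 0.0165), and with the CD24 threshold of mesenchymal cells (adjusted p = 0.0402). It did not pass with the 10% mitochondrial limit (adjusted p = 0.0672), 2 UMIs per marker (adjusted p = 0.0906) or 1 more marker (adjusted p = 0.0643). Nor did it with DESeq2 size factors (adjusted p = 0.0503), with DESeq2 (adjusted p = 0.406) or without the mouse block (adjusted p = 0.453). Serpinb2 gave 1.96 (SE 0.543, adjusted p = 0.0549), with 30 of 31 young CD24+ UMIs in 1 fibroblast barcode. It passed with doublet calls removed (adjusted p = 0.0256), with 1 more marker (adjusted p = 0.0309), without the low-count filter (adjusted p = 0.00751) and with DESeq2 size factors (adjusted p = 0.0436), but not with DESeq2 itself (adjusted p = 0.381), and with each mouse taken alone its log2 difference was 2.19 (young) and 0.21 (old). Without the mouse block Plat was still called (adjusted p = 0.0483), and Plau (adjusted p = 0.577) and Serpine2 (adjusted p = 0.0935) were not. With the CD24 threshold set on mesenchymal cells alone, Serpine2 gave -0.08 (adjusted p = 0.321).

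The makeup of the CD24 classes moved with these results. Osteoblasts were 34.4% of young and 37.6% of old CD24+ cells against 9.51% and 10.8% of CD24- cells, while marrow stromal cells were 27.4% and 27.6% against 43.6% and 50.2%, and fibroblasts 21.3% and 16.7% against 37.8% and 31.2%. Within osteoblasts, where 3.36% of 11237 genes were called, Serpine2 was lower in CD24+ cells (-0.73 log2, SE 0.103, adjusted p = 1.49e-06), at 1062 against 2101 CPM in the young and 1185 against 1612 CPM in the old mouse. There Plat (0.14, adjusted p = 0.823), Plau (-0.05, adjusted p = 0.990) and Plaur (0.69, adjusted p = 0.0505) were not called.

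**Figure D3:**
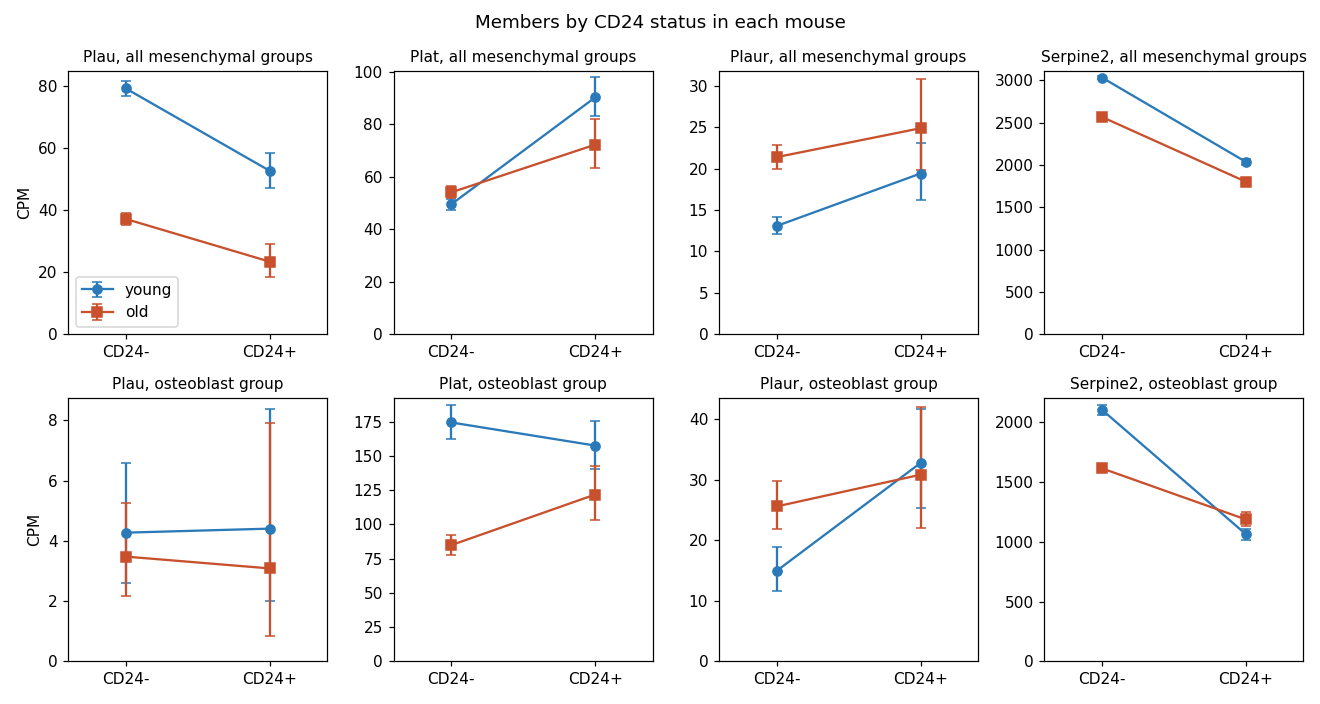
Levels of Plau, Plat, Plaur and Serpine2 (CPM, axes from 0, 95% Poisson bars) in CD24- and CD24+ mesenchymal cells of each mouse, and within osteoblasts. Over all mesenchymal cells Serpine2 and Plau are lower and Plat higher in CD24+ cells of both mice, and within osteoblasts Serpine2 is lower in CD24+ cells of both mice.

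The age comparison has 1 mouse on each side, so it has no replicate and no test, and age cannot be told apart from mouse, library or depth. Of 28 member and group values with at least 50 UMIs, 6 lay past 2-fold, 3 higher and 3 lower in the old mouse, where 3.5% of all gene and group values did so (1.54% higher and 1.96% lower, and 2.31% to 8.89% in either direction per group). Plaur in marrow stroma had an old to young ratio of 2.03 (1.68 to 2.47), with 2.85% of all genes of that group past 2-fold, and the ratio was 1.63 without S100a8-rich barcodes. Plaur in chondrocytes had 2.37 (1.42 to 4.01), and 1.87 without the top cell of each library. Plat in the pericyte group had 2.56 (1.29 to 5.53).

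The lower values were Serpinb2 in fibroblasts at 0.184 (0.085 to 0.358), Serpine2 in erythroid cells at 0.413 and Serpine2 in neutrophils at 0.157. The fibroblast Serpinb2 ratio rests on the few cells given above. Cxcl12, a stromal mRNA, averaged 4.22 young and 2.08 old UMIs per neutrophil, and 1.01 and 1.26 per erythroid cell. The part of free or attached stromal RNA in the 2 Serpine2 ratios was not tested. Inside 2-fold, Plau in fibroblasts was 0.537 (0.506 to 0.570), Plat in osteoblasts 0.538 (0.489 to 0.592) and Serpine2 in marrow stroma 0.768. The median of all genes shifted by -0.13 on the log2 scale in osteoblasts, and by less than 0.1 in the other groups. The ratio was 1.61 (1.48 to 1.74) for Plat in fibroblasts and 1.51 (1.34 to 1.69) for Plaur in neutrophils, and Serpinb2 in megakaryocytes was 1.20 (0.976 to 1.47), an interval that includes 1.

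**Figure D4:**
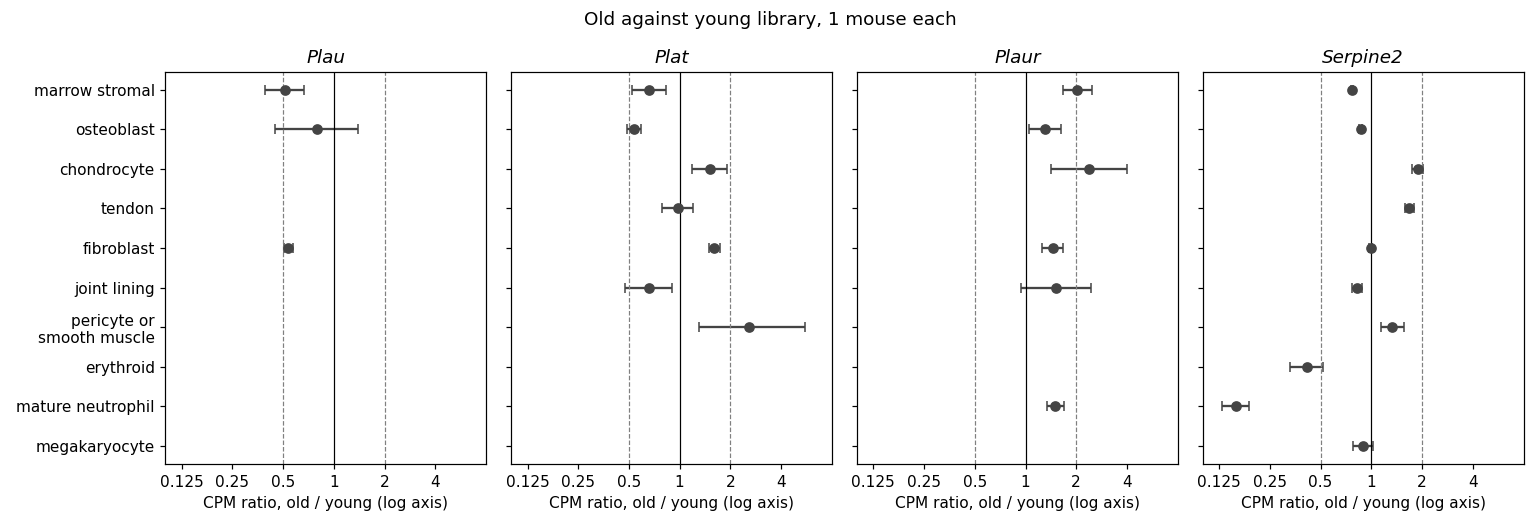
Old over young ratio of CPM for Plau, Plat, Plaur and Serpine2 in each cell group with at least 50 UMIs, on a log axis with exact 95% intervals for counting error (Serpinb2 is not drawn). Dashed lines mark 2-fold. Plaur in marrow stroma (2.03) and chondrocytes (2.37) and Plat in the pericyte group (2.56) lie above the upper line, and Serpine2 in erythroid cells (0.413) and neutrophils (0.157) below the lower one. The part of stromal RNA in the Serpine2 values of blood groups was not tested.

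The INK-ATTAC transgene carries a fragment of the p16 promoter. Cdkn2a encodes p16 and also the Arf protein, and the paper calls their transcripts hard to separate in standard single-cell libraries. In all, 69 young and 127 old mesenchymal cells had a Cdkn2a UMI. Serpine2 was 3982 CPM in these cells against 2902 CPM in the rest of the young mouse, and 1446 against 2578 CPM in the old. The mice thus differ in direction for Serpine2. Plau had 1 UMI in the young and 89 UMIs in the old cells with a Cdkn2a UMI, so no level is compared in the young mouse. Of cells with a Cdkn2a UMI, 34.8% young and 29.9% old were osteoblasts against 11.2% and 11.6% of the rest, 36.2% and 25.2% were marrow stromal cells against 42.4% and 49.8%, and 13.04% and 32.3% were fibroblasts against 36.7% and 30.4%. The part of this makeup in the values was not tested.

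Genes most like each member were ranked by the Pearson r of log2(CPM + 5) over the 10 cell groups, taken in each library, the lower r deciding. Groups share depth and free RNA, so r is a description. Plau was most like Galnt16 (r = 0.860 young, 0.932 old), Tnfaip6 (0.916 and 0.850) and Gprc5b (0.837 and 0.838). Plat was most like Col6a3 (0.932 and 0.940), Ptgis (0.951 and 0.920) and Nbl1 (0.914 and 0.943). Plaur was most like Cln3 (0.992 and 0.971), Cd14 (0.970 and 0.973) and Tlr2 (0.960 and 0.955), and Serpine2 most like Gpx8 (0.928 and 0.960), Cers5 (0.916 and 0.943) and Ctbp2 (0.947 and 0.915). Serpinb2, with 268 young and 230 old UMIs, fell under the limit of 500.

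Around these members, 5 lists of 47 further genes of plasminogen biology were read, of which 34 passed the filter in the test among mesenchymal groups and 34 were called, against 67.6% of all genes. In the contrast of mesenchymal with blood groups, 33.7% of all 12835 genes were called higher and 29.2% lower. Of those genes, 1053 had no usable test, and the counts of the lists leave such genes out. The other serpins and plasmin inhibitors had 5 higher and 0 lower of 7 with a usable test (median log2 3.01). Uptake receptors and partners had 5 higher and 1 lower of 6 (median 3.10). Vtn (3.59 log2), Itgam (-2.13) and Fpr2 (-2.07) were left out of the latter list. Itgam and Fpr2 were highest in mature neutrophils of each mouse. Other serine and coagulation proteases had 5 higher and 0 lower of 7 (2.30), plasmin substrates and released factors 4 higher and 2 lower of 8 (1.84), and plasminogen receptors 2 higher and 2 lower of 4 (0.15). In the CD24 contrast 15.4% of all genes were called, 8.4% higher and 7.03% lower in CD24+ cells. There, 1 of 9 serpins and inhibitors was higher and 3 lower in CD24+ cells, the latter with Serping1 (-0.89 log2, adjusted p = 0.000925). Of 8 substrates and released factors 4 were higher and 1 lower, and of 9 proteases 1 was higher, Htra1 (0.55 log2, adjusted p = 0.00635), and 2 lower. Of 9 uptake receptors and partners 0 were higher and 1 lower, and of 4 plasminogen receptors 1 was higher and 0 lower.

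S100a10, which with Anxa2 forms a surface plasminogen receptor, was highest in fibroblasts (2119 CPM young, 1773 CPM old, adjusted p = 5.35e-07 among groups). A2m, a broad protease trap, was 89.8 and 83.4 CPM in marrow stroma and at most 2.14 CPM in the other mesenchymal groups (adjusted p = 1.91e-08). Serping1, the C1 inhibitor, was 2795 and 2940 CPM in marrow stroma and 2229 and 2309 CPM in fibroblasts. Joint lining cells had the most Fn1, the matrix protein fibronectin (14098 and 14442 CPM, adjusted p = 1.40e-07), the most Mrc2, a collagen uptake receptor that binds uPAR (127 and 182 CPM, adjusted p = 1.01e-06), the most Htra1, a secreted serine protease (1068 and 1552 CPM), and the most F13a1 of the mesenchymal groups, the fibrin crosslinking factor (450.5 and 342.5 CPM). Itgb1, an integrin chain, was highest in the pericyte group (907 and 1154 CPM). Plg, plasminogen itself, had 2 UMIs in the 10 groups, and the fibrinogen chains Fga and Fgb had 0, values looked up after the others were seen.

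**Figure D5:**
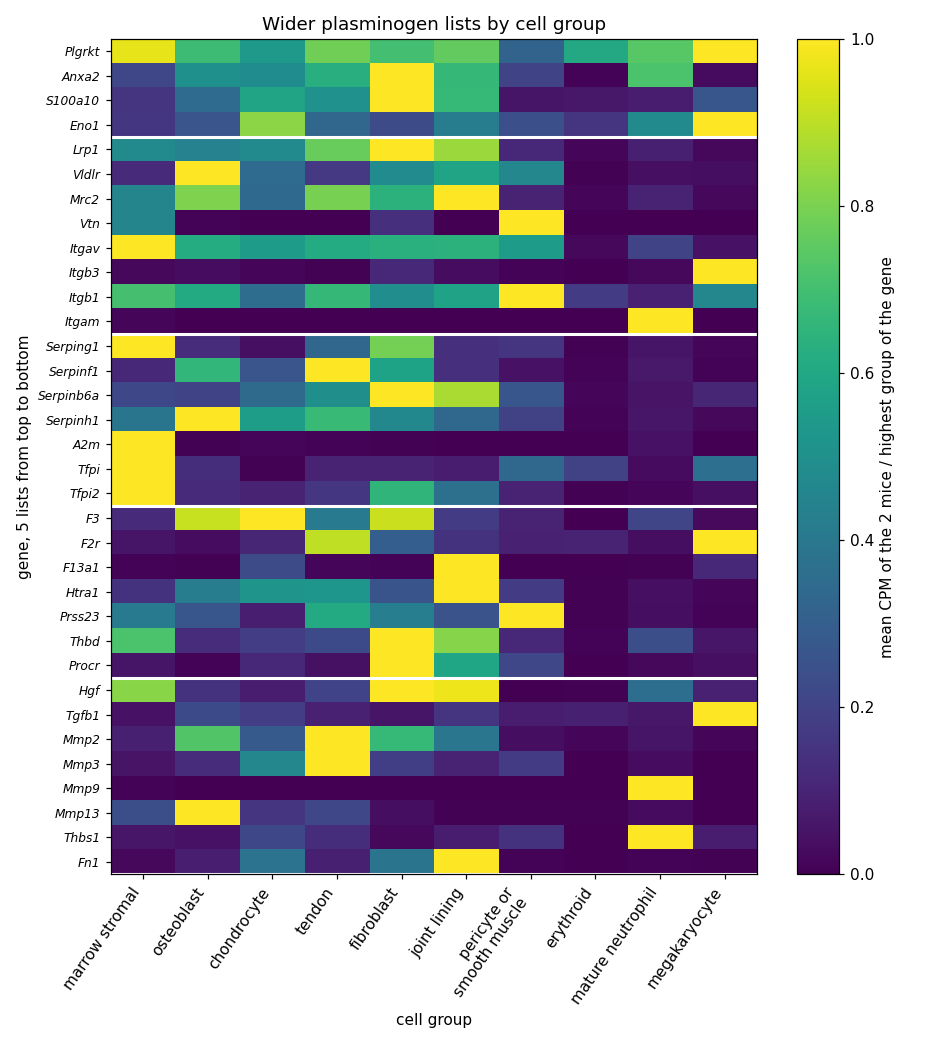
Heat map of the wider lists by cell group, each gene shown as the mean CPM of the 2 mice divided by its own highest group, for the 34 genes with at least 500 UMIs. White lines separate the 5 lists, and rows compare groups within a gene only: S100a10 peaks in fibroblasts, A2m in marrow stroma and Fn1 in joint lining cells.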

How the data were processed

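Matrices of UMI counts, deposited by the authors as whole numbers per gene and barcode for RNA and the CD24 antibody in 1 young and 1 old mouse, were used without normalization. Per the file headers Cell Ranger 6.1.1 made them (an earlier release stands in the methods), and the submitters' processing notes give mm10, R 4.0.3 and Seurat 4.0. Barcodes with under 200 genes or over 20% mitochondrial UMIs were left out, which applied to 588 and 1306 young and 298 and 1117 old barcodes, in part the same ones, and 81076421 young and 66702846 old RNA UMIs were kept. Scrublet (scanpy 1.11.5) called 269 young and 57 old doublets, kept except in an alternative. No other column of per-sample values was present (0 not used).

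The members, marker lists, gates and wider lists were chosen with earlier results of these data known, and the marker number needed was set after cell numbers were seen. Exactly 3 markers placed 1154 young and 455 old barcodes. Groups with 50 cells in each library entered the fits, which left out the B lineage and the progenitor or basophil groups. Raw counts were summed per mouse and group and tested with edgeR 4.0.16 (limma 3.58.1, R 4.3.3) by quasi-likelihood with filterByExpr, TMM scaling and Benjamini-Hochberg adjustment at 0.05 over all genes tested. Mouse was the block, since sums of 1 mouse come from the same animal. With 2 mice the correlation of their deviations is fixed by construction and checks nothing. The mice differ in age, so p-values measure the spread over 2 mice of unlike age. DESeq2 1.42.0 was an alternative. CD24+ cells lay above the Otsu threshold of log antibody counts (312 young and 396 old UMIs). Levels carry exact Poisson and shares exact Clopper-Pearson 95% intervals (SciPy 1.17.1), which cover counting error only, and a count of 0 was given a floor of 3 counts. Thinning to 2000 UMIs left out 770 young and 496 old barcodes. Scripts were tested on simulated data.

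All 6 members are described. Of each wider list, the gene with the largest F among mesenchymal groups and the one with the highest level were named, and for likeness 3 genes per member with at least 500 UMIs. Promoter windows were taken from RefSeq (GRCm38.p6), and Plau and Plat windows were not used here.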

Additional observations from a re-analysis of the deposited data

Results flagged for a closer look

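The old to young ratio of Plat was 2.56 in the pericyte or smooth muscle group and 0.538 in osteoblasts, so the 2 groups lay on opposite sides of 1 in the same contrast. That of Serpine2 was 1.89 in chondrocytes and 0.157 in mature neutrophils. Each was picked out because the groups went in opposite directions between the same 2 mice, and with 1 mouse per age the difference was not tested. In the old pericyte group 26.8% of the Plat UMIs came from 1 cell, and the ratio was 2.30 without the top cell of each library. The Serpine2 log2 ratio in neutrophils was -1.34 when each marker needed 2 UMIs. The part of free or attached stromal RNA in the neutrophil values was not tested.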

How the results depend on the processing

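A few alternatives moved a count of calls or ratios by over 1.5 times. The CD24 contrast called 2351 genes with mouse as a block, 778 with no replicate block, 1384 with DESeq2 and 378 within osteoblasts. The run within osteoblasts has fewer cells and no difference in makeup by cell group, and the part of each in the count was not tested. The age comparison had 6 of 28 ratios past 2-fold but 1 of 20 after thinning, where fewer ratios had enough UMIs. The CD24 calls with mouse as a block that were lost without it are given beside the CD24 results. Member calls between pairs of mesenchymal groups numbered 42 of 84 with the block and 32 without it, and the lost pairs are not named here. In the edgeR test among mesenchymal groups without the block, Plaur had F = 5.70 and an adjusted p of 0.0130. The other 49 counts of genes, groups or ratios under an alternative stayed within 1.5 times of the value reported. Of the values of single members under an alternative, 225 kept direction and side of the threshold or moved by less than their error. Another 32 moved by more, 5 lost their call and 9 gained one, among them Serpinb2 and Plaur by CD24, as given above. The 5 lost calls were all in the CD24 contrast. Calls between pairs of mesenchymal groups are in neither the 5 nor the 9, so the Plau calls of the pericyte group that were lost come on top. No called difference of a member in the contrasts with blood groups or by CD24 changed sign in an alternative run, and the stromal against tendon difference of Plaur, not called with all barcodes, did so without S100a8-rich barcodes, as given above. The alternatives were Scrublet doublets removed, a 10% mitochondrial limit, stricter marker rules, no filter on low counts, DESeq2 size factors and DESeq2. Leaving out S100a8-rich mesenchymal barcodes and the pericyte barcode with the most Plau were alternatives chosen after seeing the data. With 1 mouse left out no residual spread remained, so those values have no test, and that was not run for the test among mesenchymal groups. Depth limits Serpinf2, Serpinb2 outside megakaryocytes and every value of the pericyte, megakaryocyte, old chondrocyte and old joint lining groups, which hold under 100 cells.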
